A study of Mus musculus with 12 samples.

Results

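The DNA replication and S phase genes described here were 40 genes chosen by symbol, of the 78317 genes in the deposited expression table. Each of the 40 symbols had 1 row in the table, and all 40 were among the 14012 genes with enough counts to be tested. The study compared PBRM1 KO and control cells of the mouse line 4T1, with and without TGFβ1. 4T1 is a mammary carcinoma line that the labels class as triple negative breast cancer, and PBRM1 is a subunit of the PBAF chromatin remodelling complex. Messenger RNA was counted at its 3′ end, with duplicate reads removed by molecular identifier. The 4 groups held 3 biological replicates each, per the labels: PBRM1 KO cells given 5 ng/ml TGFβ1 for 4 days, PBRM1 KO cells without TGFβ1, control cells given the same TGFβ1 treatment, and control cells without TGFβ1. The labels did not say where Pbrm1 was edited or whether the KO cells were a clone or a pool.

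DNA is copied once in each cell cycle, in S phase. In G1, Cdc6 and Cdt1 load the ring-shaped MCM2-7 helicase at origins, and Cdc45 and the GINS complex then turn it into an active helicase. Polymerase α with primase starts each strand, the RFC clamp loader sets the PCNA ring on the primer, and polymerases δ and ε extend it while enzymes such as ribonucleotide reductase supply the nucleotides. Many of these genes are transcribed in a wave at the passage from G1 to S under E2F transcription factors, so their mRNA is a common measure of how many cells are preparing for or passing through S phase. TGFβ1 is a cytokine known to hold many kinds of epithelial cell in G1 and to switch others to a mesenchymal state. In bulk RNA of this kind, fewer cells in S phase and less of the mRNA in each such cell cannot be told apart.

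Library totals ran from 9265693 to 11250850 counts. Pbrm1 itself had 274, 233 and 222 CPM (the authors' counts scaled to the library total) in TGFβ1-treated KO cells and 245, 207 and 222 CPM in untreated KO cells, against 290, 292 and 276 CPM in TGFβ1-treated control cells and 328, 261 and 258 CPM in untreated control cells. These 3′ counts need not read the edited part of the gene and so do not check the knockout. Epithelial markers were detected in every library, 7 of 7 of them, with a summed level of 2140 to 3030 CPM. Esr1 had 4.42 to 11.5 CPM, Erbb2 34.6 to 41.6 CPM and Pgr 0 to 0.133 CPM. Leukocyte markers summed to at most 0.216 CPM and endothelial markers to at most 0.851 CPM.

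Replicate 3 of the TGFβ1-treated cells stood apart from replicates 1 and 2 in both genotypes. On the first principal component of all genes tested, which held 53.2% of the variance, TGFβ1-treated KO libraries lay at 40.9, 38.9 and -1.0 and untreated KO libraries at -29.8, -29.1 and -33.1. The TGFβ1-treated control libraries lay at 40.0, 43.7 and 1.4, and the untreated control libraries at -18.9, -26.5 and -26.5. The same replicate had the smallest gain in Ccn2, a matrix protein gene that TGFβ signalling induces through SMAD factors: 498, 457 and 248 CPM in TGFβ1-treated KO cells against 69.7, 59.8 and 61.7 CPM in untreated KO cells, and 595, 467 and 309 CPM in TGFβ1-treated control cells against 62.0, 85.2 and 95.7 CPM in untreated control cells. For Smad7, the inhibitory SMAD and another target, the values were 85.5, 82.3 and 49.6 CPM with TGFβ1 and 39.8, 33.3 and 41.9 CPM without it in KO cells, and 89.9, 92.5 and 50.4 CPM with TGFβ1 and 41.0, 33.3 and 39.9 CPM without it in control cells. Results on TGFβ1 are therefore given with all 12 libraries and also without both of these libraries.

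A majority of the replication genes fell after TGFβ1 in the average of both genotypes, and few passed in either genotype alone. Averaged over the KO and control cells, 22 of the 40 fell and 0 rose at an adjusted p below 0.05 in edgeR's quasi-likelihood test with Benjamini-Hochberg adjustment over all genes tested. By comparison, 10.6% of all genes tested fell and 15.1% rose. The members that fell were 12.4% to 31.1% lower after TGFβ1, with the deepest fall in Tk1, and the median log2 fold change of the 40 was -0.28, against 0.00 for all genes tested. The 18 members that did not pass had log2 fold changes of -0.37 to 0.15, and Cdc45 and Ccne1 were the only 2 of the 40 above 0.

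Within each genotype alone, with 3 libraries against 3, fewer members passed. In KO cells 5 of 40 fell after TGFβ1 (Rfc5, Slbp, Tk1, Mcm5 and Lig1) and 0 rose, where 3.72% of all genes fell and 7.65% rose. With the replicate number as a block, since same-numbered libraries deviated together in this comparison, 17 of 40 fell in KO cells, against 7.84% of all genes. In control cells 3 of 40 fell (Rfc4, Mcm5 and Lig1) and 0 rose, where 2.91% of all genes fell and 5.89% rose. The median log2 fold change of the 40 was -0.29 in KO cells and -0.24 in control cells, with 39 and 38 of the 40 below 0.

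The counts depended on single libraries. Leaving out TGFβ1-treated KO replicate 1 or 2 brought averaged calls to 12 of 40, where 7.18% and 7.53% of all genes were called lower. The calls in KO cells fell to 0 without either library. At most 1.26% of all genes were then called lower in KO cells, against 3.72% with all 12 libraries. Leaving out TGFβ1-treated control replicate 1 or 2, or untreated control replicate 2 or 3, brought the calls in control cells to 0. Of all genes, 1.45%, 1.02%, 1.37% and 1.45% were called lower in these fits, so calls dropped across all genes too. Leaving out the TGFβ1-treated replicate 3 libraries of both genotypes, which lay nearest to the untreated libraries on the first principal component, raised the counts. The averaged comparison then called 38 of 40 members lower, against 19.3% of all genes, with a median log2 fold change of -0.41. In KO cells 34 of 40 were then lower, against 12% of all genes, and in control cells 29 of 40, against 10% of all genes. The members outside the 38 were Cdc45 and Ccne1, at log2 fold changes of -0.06 and 0.07. Both replicate 3 libraries were picked from these same data for their small TGFβ1 response. The higher counts and deeper median without them follow from that choice and are no separate support.

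**Figure D1:**
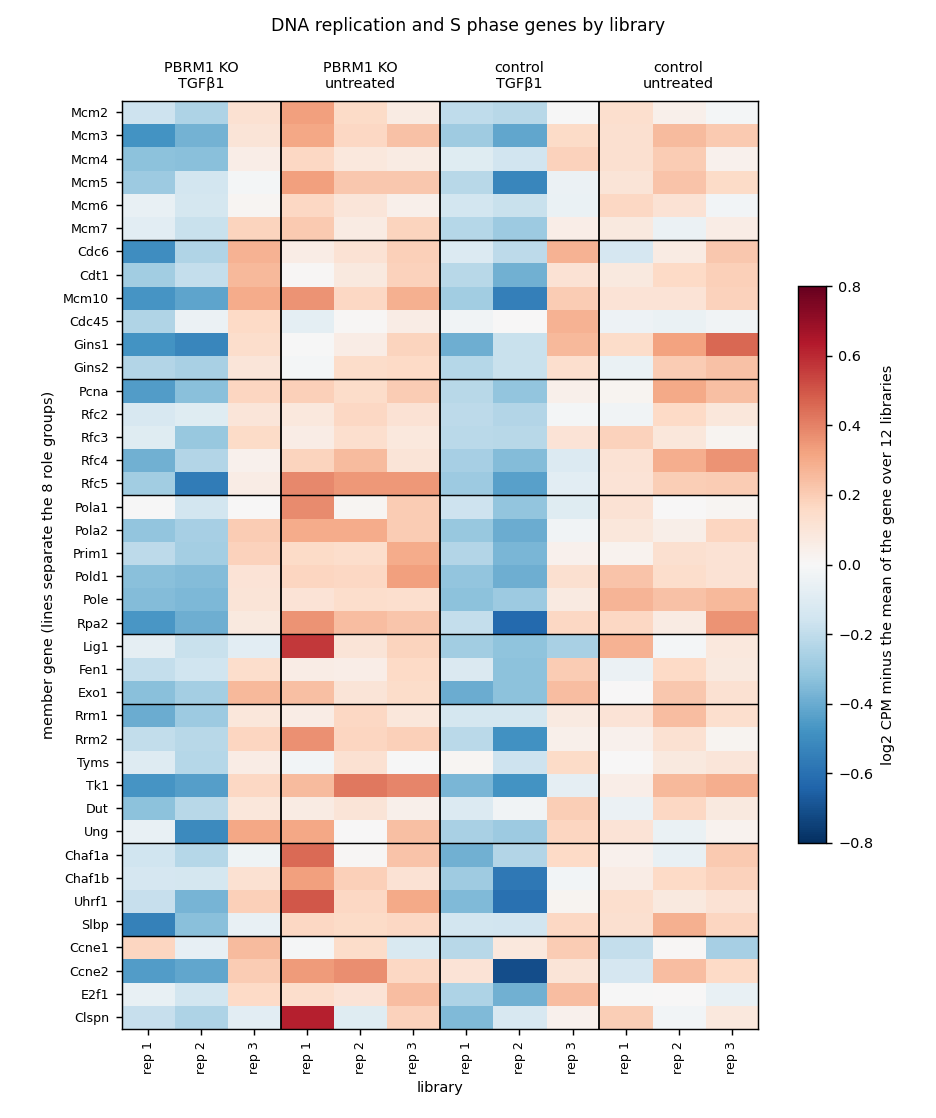
Log2 CPM of each of the 40 members minus the gene's mean over the 12 libraries, with genes in rows, ordered by role and with lines between the 8 role groups, and libraries in columns by group. Blue (below the gene's mean) fills replicates 1 and 2 of the TGFβ1-treated KO and control cells, while replicate 3 of both treated groups is close to the untreated libraries for most genes.

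Promoter sequences were read for the members from RefSeq (mouse build GRCm38.p6, an older build than the mm39 of the expression files), as windows from 250 bases before to 50 bases after each annotated start. A window was found for 33 of the 40 members, 38 windows in all; Mcm4, Gins1, Gins2, Rfc2, Pole, Exo1 and Ccne2 are named only. The windows were searched on both strands for 4 letter sets, and overlapping matches within a window were not added up. The E2F letters TTTGGCGC, TTTCCCGC, TTTGCCGC or TTTCGCGC stood in 12 of the 33 members, or 36.4%, against 2.6% of 27025 genes with a window. Those 12 were Mcm3, Mcm5, Mcm6, Mcm7, Cdc6, Cdt1, Rfc3, Pola1, Pold1, Lig1, Uhrf1 and Clspn. CCAAT stood in 54.5% of the members against 41.1% of all genes, the GC box GGGCGG in 72.7% against 38.2%, and the cell cycle letters TTTGAA or TTCGAA in 15.2% against 21.7%. A match of letters is a description of the window and shows neither binding nor a cause. Only exact matches within the windows were read, so a member without the E2F letters may still hold an E2F site.

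Members with and without the E2F letters did not separate by their TGFβ1 effect: 8 of the 12 with them and 12 of the 21 without them fell in the averaged comparison, and both sets had a median log2 fold change of -0.29. The following stretches show the match in those members that fell where the match and 30 bases beyond it lie before the start site. In Mcm3, Lig1, Pold1 and Clspn, which also fell, the matches lie after the start and are not shown. They begin at 19 and 38 in Mcm3, 26 in Lig1, 39 in Pold1 and 21 in Clspn, in bases from the start. Capitals mark the E2F letters, lower case the bases around them, each stretch is given 5′ to 3′ on the strand of the gene, and all lie before the start site. In Mcm5 and Mcm6, a match on the gene's strand and one on the other strand overlap to make 1 longer run. In Pola1 the match lies on the other strand and so is read as its reverse complement.
Mcm5 (chr8:75109326-75109397, + strand): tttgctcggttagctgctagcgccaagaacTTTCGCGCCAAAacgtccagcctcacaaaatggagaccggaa
Mcm6 (chr1:128359715-128359845, - strand): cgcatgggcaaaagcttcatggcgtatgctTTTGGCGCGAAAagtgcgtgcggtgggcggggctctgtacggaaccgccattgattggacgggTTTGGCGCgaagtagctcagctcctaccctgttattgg
Uhrf1 (chr17:56304098-56304165, + strand): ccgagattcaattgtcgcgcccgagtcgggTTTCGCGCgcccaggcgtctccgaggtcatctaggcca
Pola1 (chrX:93632256-93632323, - strand): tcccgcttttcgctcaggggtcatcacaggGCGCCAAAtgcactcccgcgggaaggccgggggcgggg

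Tk1 and Rfc5, with the deepest falls, had no E2F letter set in their windows, which does not show that they lack E2F sites. Their bases just before the start are shown for contrast, with capitals for the GC box of Tk1. Rfc5 had none of the 4 kinds of motif.
Tk1 (chr11:117826015-117826114, - strand): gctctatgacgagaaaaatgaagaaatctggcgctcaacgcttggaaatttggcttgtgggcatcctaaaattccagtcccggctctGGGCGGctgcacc
Rfc5 (chr5:117389024-117389123, - strand): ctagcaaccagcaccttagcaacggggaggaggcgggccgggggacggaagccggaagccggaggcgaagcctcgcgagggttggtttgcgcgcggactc

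**Figure D2:**
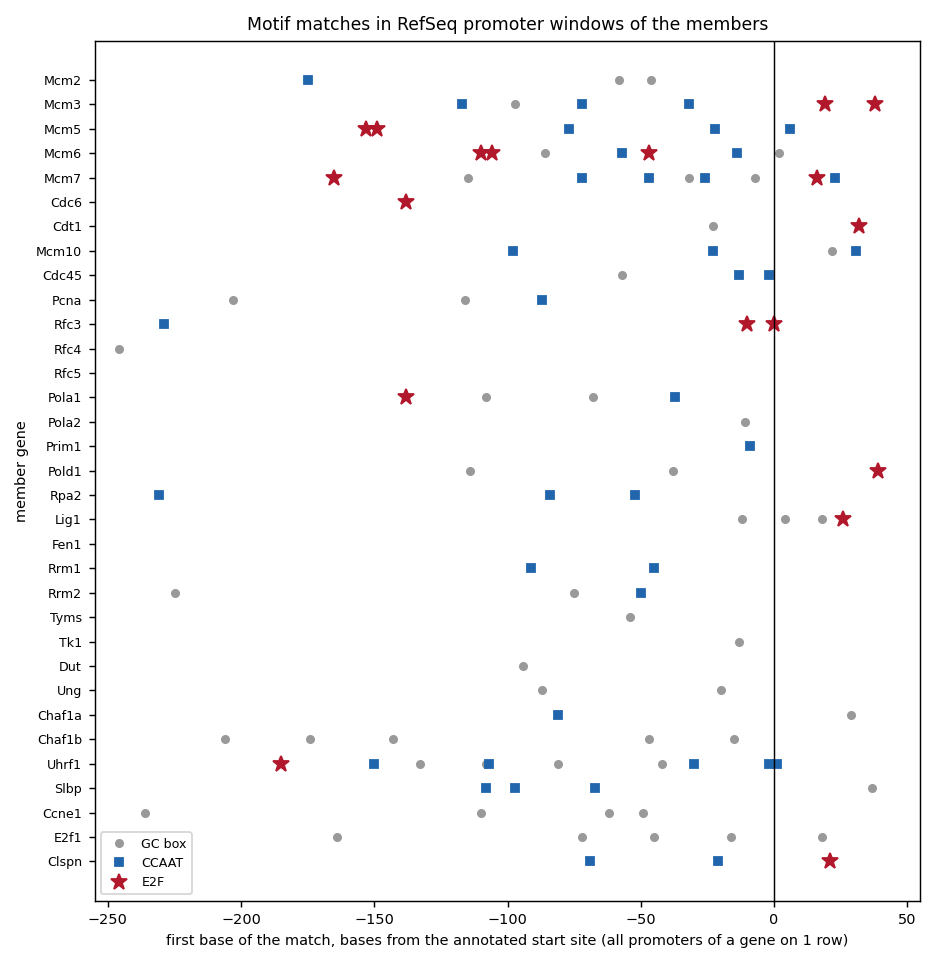
First base of each match to the E2F, CCAAT and GC box letters, in bases from the annotated start site (0), for the members with a RefSeq promoter window and with all windows of a gene on 1 row. The E2F matches lie both before the start, as at -153 and -149 in Mcm5, and after it, and Rfc5 has no match.

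The values below are deposited CPM in replicates 1, 2 and 3, in that order. Each fold change is the averaged TGFβ1 effect unless a genotype is named, as log2 with its standard error and adjusted p from edgeR's quasi-likelihood test. Levels of different genes are not compared, because counts at 3′ ends depend on each gene's own end.

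Of the MCM2-7 helicase, 4 of 6 subunits fell (Mcm2, Mcm3, Mcm5 and Mcm6), and the median log2 fold change of the 6 was -0.23. Mcm5 had 67.9, 73.6 and 79.7 CPM in TGFβ1-treated KO cells and 101, 94.5 and 94.2 CPM in untreated KO cells. In control cells it had 69.7, 57.0 and 77.5 CPM with TGFβ1 and 88.9, 94.3 and 88.9 CPM without it. All treated libraries, replicate 3 included, lay below all untreated ones of their genotype, and the log2 fold change was -0.41 ± 0.08 (adjusted p = 0.00238), with -0.40 ± 0.11 in KO cells (adjusted p = 0.0359) and -0.42 ± 0.11 in control cells (adjusted p = 0.0368). Mcm3 had 82.5, 86.6 and 119.9 CPM in TGFβ1-treated KO cells and 138, 127 and 132 CPM in untreated KO cells, and 92.4, 84.7 and 124 CPM in TGFβ1-treated control cells and 125, 133 and 128 CPM in untreated control cells. Its groups did not overlap, but replicate 3 lay just under the untreated range, and the log2 fold change was -0.41 ± 0.11 (adjusted p = 0.0153).

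Mcm6 had 153, 142 and 157 CPM in TGFβ1-treated KO cells and 174, 168 and 160.3 CPM in untreated KO cells, with 141, 139 and 148 CPM in TGFβ1-treated control cells and 178, 168 and 151 CPM in untreated control cells. Its fall was the smallest among the 22, at -0.19 ± 0.06 (adjusted p = 0.0267), and its groups did not overlap in either genotype. Mcm2 had 130.2, 121 and 154 CPM in TGFβ1-treated KO cells and 178, 159.5 and 149 CPM in untreated KO cells, with 124, 123 and 141 CPM in TGFβ1-treated control cells and 159, 146 and 139 CPM in untreated control cells. In both genotypes its treated replicate 3 lay above the lowest untreated library, and the log2 fold change was -0.23 ± 0.08 (adjusted p = 0.0395). Mcm7 had 221, 204 and 258 CPM in TGFβ1-treated KO cells and 264, 241 and 259.6 CPM in untreated KO cells, with 196, 189 and 235 CPM in TGFβ1-treated control cells and 247, 220.4 and 235 CPM in untreated control cells. Mcm7 did not pass the test (-0.18 ± 0.08, adjusted p = 0.110), nor did Mcm4 (-0.22 ± 0.08, adjusted p = 0.0690). Both passed without the replicate 3 libraries, which were left out for their small TGFβ1 response.

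None of the 6 genes of origin licensing and helicase activation passed, although their median of -0.22 was close to that of the MCM subunits. These are the loaders Cdc6 and Cdt1, the firing factor Mcm10, the helicase cofactor Cdc45 and the GINS subunits Gins1 and Gins2. Gins1 had 8.68, 8.27 and 13.0 CPM in TGFβ1-treated KO cells and 11.8, 12.5 and 13.5 CPM in untreated KO cells, and 9.07, 10.6 and 14.1 CPM in TGFβ1-treated control cells and 13.5, 14.8 and 16.1 CPM in untreated control cells. Its log2 fold change was -0.37 ± 0.14 (adjusted p = 0.0671), with replicate 3 inside the untreated range in both genotypes. Mcm10 gave -0.37 ± 0.14 (adjusted p = 0.0736), Cdt1 and Gins2 both -0.22, and Cdc6 -0.15. Cdc45, singled out after its values were seen, had 40.0, 45.0 and 51.2 CPM in TGFβ1-treated KO cells and 43.5, 46.7 and 48.2 CPM in untreated KO cells, and 45.3, 46.6 and 55.5 CPM in TGFβ1-treated control cells and 45.7, 44.1 and 44.5 CPM in untreated control cells. Its groups overlapped in both genotypes, with a log2 fold change of 0.05 ± 0.08 (adjusted p = 0.673).

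The sliding clamp Pcna and the clamp loader subunits Rfc2, Rfc4 and Rfc5 fell, 4 of 5 in this group, with a median of -0.35. Rfc5 had 39.4, 31.9 and 48.2 CPM in TGFβ1-treated KO cells and 60.8, 59.8 and 59.5 CPM in untreated KO cells. In control cells it had 38.3, 34.8 and 43.5 CPM with TGFβ1 and 51.3, 53.0 and 53.0 CPM without it. The treated and untreated libraries lay well apart in both genotypes, and Rfc5 had the smallest adjusted p of all 40 members, at -0.52 ± 0.09 (adjusted p = 0.00152), with -0.60 ± 0.13 in KO cells (adjusted p = 0.0117) and -0.43 ± 0.13 in control cells (adjusted p = 0.0592). Rfc4 had 20.3, 22.1 and 26.4 CPM in TGFβ1-treated KO cells and 29.2, 31.0 and 27.8 CPM in untreated KO cells, and 21.6, 20.4 and 23.8 CPM in TGFβ1-treated control cells and 28.6, 31.4 and 32.8 CPM in untreated control cells. Its groups did not overlap, at -0.43 ± 0.09 over both genotypes (adjusted p = 0.00271) and -0.50 ± 0.12 in control cells (adjusted p = 0.0237).

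Pcna had 131, 138 and 194 CPM in TGFβ1-treated KO cells and 197, 193 and 199.6 CPM in untreated KO cells, with 149, 140.2 and 177 CPM in TGFβ1-treated control cells and 179.6, 213 and 202 CPM in untreated control cells. Treated replicate 3 reached the untreated range in KO cells and lay just under it in control cells, and the log2 fold change was -0.35 ± 0.10 (adjusted p = 0.0223). Rfc2 had 40.5, 40.5 and 45.8 CPM in TGFβ1-treated KO cells and 45.6, 48.5 and 46.8 CPM in untreated KO cells, with 37.3, 36.9 and 42.2 CPM in TGFβ1-treated control cells and 43.1, 47.7 and 45.1 CPM in untreated control cells. Its log2 fold change was -0.19 ± 0.07 (adjusted p = 0.0471), with no overlap in control cells and a touch of overlap in KO cells. In DESeq2 the same comparison gave Rfc2 an adjusted p of 0.0552, so this call depends on the tool. Rfc3 did not pass, at -0.18.

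All 6 members of the polymerase, primase and single-strand binding group fell, with a median of -0.36. Pole, the catalytic subunit of polymerase ε, had 18.9, 18.4 and 25.1 CPM in TGFβ1-treated KO cells and 25.2, 26.0 and 25.8 CPM in untreated KO cells, with 18.8, 19.4 and 24.4 CPM in TGFβ1-treated control cells and 28.9, 27.5 and 27.7 CPM in untreated control cells. Its groups did not overlap, though in KO cells replicate 3 came within rounding of the untreated range, and the log2 fold change was -0.37 ± 0.10 (adjusted p = 0.0137). Pold1, the catalytic subunit of polymerase δ, had 31.2, 30.3 and 41.2 CPM in TGFβ1-treated KO cells and 43.0, 43.3 and 48.2 CPM in untreated KO cells, with 31.0, 29.5 and 41.5 CPM in TGFβ1-treated control cells and 45.9, 42.0 and 41.0 CPM in untreated control cells. It gave -0.37 ± 0.10 (adjusted p = 0.0194), with no overlap in KO cells.

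Both polymerase α subunits fell. Pola2, its accessory subunit, had 65.6, 66.6 and 91.2 CPM in TGFβ1-treated KO cells and 97.3, 98.4 and 91.7 CPM in untreated KO cells, with 64.8, 61.1 and 77.1 CPM in TGFβ1-treated control cells and 86.6, 81.6 and 88.3 CPM in untreated control cells. Its groups did not overlap in either genotype, at -0.36 ± 0.09 (adjusted p = 0.0134). In KO cells, however, treated replicate 3 (91.2 CPM) lay just under untreated replicate 3 (91.7 CPM). Pola1, the catalytic subunit, had 35.5, 31.5 and 34.5 CPM in TGFβ1-treated KO cells and 44.9, 35.2 and 39.9 CPM in untreated KO cells, with 31.1, 28.0 and 32.1 CPM in TGFβ1-treated control cells and 38.4, 34.5 and 34.4 CPM in untreated control cells. Replicate 3 of Pola1 was as low as the other treated replicates, and the log2 fold change was -0.25 ± 0.07 (adjusted p = 0.0273). The primase subunit Prim1 had 29.7, 28.0 and 37.9 CPM in TGFβ1-treated KO cells and 37.2, 37.3 and 41.3 CPM in untreated KO cells, with 28.6, 26.2 and 34.1 CPM in TGFβ1-treated control cells and 34.9, 36.5 and 35.9 CPM in untreated control cells. It gave -0.28 ± 0.09 (adjusted p = 0.0402), with replicate 3 inside the untreated range in KO cells.

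Rpa2, a subunit of the complex that coats single-stranded DNA, had 26.1, 27.1 and 37.1 CPM in TGFβ1-treated KO cells and 45.1, 42.1 and 41.1 CPM in untreated KO cells, with 31.0, 23.1 and 39.2 CPM in TGFβ1-treated control cells and 40.4, 36.8 and 44.7 CPM in untreated control cells. Its KO groups did not overlap and its control groups did, at -0.45 ± 0.13 (adjusted p = 0.0196).

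Of the 3 genes of Okazaki fragment maturation, Lig1 fell and the flap nuclease Fen1 (-0.14) and the exonuclease Exo1 (-0.25) did not pass. Lig1, the ligase that seals the fragments, had 79.1, 72.1 and 76.0 CPM in TGFβ1-treated KO cells and 119.5, 87.5 and 91.6 CPM in untreated KO cells. In control cells it had 66.9, 65.3 and 66.9 CPM with TGFβ1 and 100.2, 79.5 and 84.8 CPM without it. The 3 treated replicates were level with each other, replicate 3 included, and untreated replicate 1 was the highest in both genotypes. Lig1 fell over both genotypes (-0.41 ± 0.08, adjusted p = 0.00305) and in each alone, at -0.41 ± 0.12 in KO cells (adjusted p = 0.0394) and -0.41 ± 0.12 in control cells (adjusted p = 0.0459).

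In the group of nucleotide supply and uracil removal, 3 of 6 fell, with a median of -0.22. Tk1, the thymidine kinase that salvages thymidine in S phase, had 72.1, 72.1 and 109 CPM in TGFβ1-treated KO cells and 115, 131 and 128 CPM in untreated KO cells. In control cells it had 75.9, 70.4 and 91.6 CPM with TGFβ1 and 103, 116 and 117 CPM without it. Its groups did not overlap and its fall was the deepest of the 40, at -0.54 ± 0.11 (adjusted p = 0.00359), with -0.57 ± 0.16 in KO cells (adjusted p = 0.0334) and -0.50 ± 0.16 in control cells (adjusted p = 0.0654).

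The ribonucleotide reductase subunits Rrm1 and Rrm2 both fell. Rrm1 had 106, 112 and 144 CPM in TGFβ1-treated KO cells and 141, 154 and 145 CPM in untreated KO cells, with 124, 124 and 141 CPM in TGFβ1-treated control cells and 149.6, 161 and 147 CPM in untreated control cells, a log2 fold change of -0.26 ± 0.08 (adjusted p = 0.0318). Rrm2 had 208, 200.5 and 261 CPM in TGFβ1-treated KO cells and 298, 263 and 266 CPM in untreated KO cells, with 201, 168 and 237 CPM in TGFβ1-treated control cells and 243, 252 and 233 CPM in untreated control cells, a log2 fold change of -0.29 ± 0.09 (adjusted p = 0.0357). For both genes treated replicate 3 lay at or near the untreated libraries. The thymidylate synthase Tyms (-0.09), the dUTP hydrolase Dut (-0.13) and the uracil glycosylase Ung (-0.19) did not pass.

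Of the 4 genes of chromatin assembly, methylation maintenance and histone mRNA, 3 fell, with a median of -0.34. Slbp, which binds the stem-loop of replication-dependent histone mRNAs, had 37.7, 42.6 and 51.1 CPM in TGFβ1-treated KO cells and 59.9, 59.9 and 60.0 CPM in untreated KO cells. In control cells it had 48.4, 48.5 and 59.4 CPM with TGFβ1 and 59.7, 64.8 and 59.5 CPM without it. The KO groups were well apart, while treated control replicate 3 came within rounding of the untreated level; the log2 fold change was -0.35 ± 0.09 over both genotypes (adjusted p = 0.00963), -0.46 ± 0.12 in KO cells (adjusted p = 0.0274) and -0.24 ± 0.12 in control cells (adjusted p = 0.248). The difference between these effects, -0.23, did not pass (unadjusted p = 0.209 in edgeR's interaction test).

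Uhrf1, which guides maintenance DNA methylation at replication forks, had 104, 89.6 and 131 CPM in TGFβ1-treated KO cells and 162, 130.2 and 143 CPM in untreated KO cells, with 90.7, 76.9 and 116 CPM in TGFβ1-treated control cells and 129.5, 121 and 123 CPM in untreated control cells. It fell by 0.42 on the log2 scale (SE 0.11, adjusted p = 0.0161), with overlap in KO cells only by replicate 3. Counts of Uhrf1 were fractional in 11 of the 12 libraries and those of Chaf1a in 10, more than for any other member; how the fractions arose is not given in the sources used here. Chaf1b, a subunit of the CAF-1 histone chaperone, had 23.8, 23.2 and 27.5 CPM in TGFβ1-treated KO cells and 31.9, 29.3 and 27.6 CPM in untreated KO cells, with 20.9, 17.2 and 24.9 CPM in TGFβ1-treated control cells and 27.0, 28.3 and 28.5 CPM in untreated control cells. Its groups met within rounding in KO cells and were apart in control cells, at -0.34 ± 0.09 (adjusted p = 0.0187). Chaf1a, the large subunit of CAF-1, missed the threshold, at -0.29 ± 0.10 (adjusted p = 0.0541), and passed it in DESeq2 (adjusted p = 0.0453).

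Among the 4 genes of S phase entry and checkpoint, Clspn alone fell. Clspn, the adaptor that carries the replication checkpoint signal to the kinase CHK1, had 19.7, 18.5 and 20.6 CPM in TGFβ1-treated KO cells and 33.6, 20.6 and 24.9 CPM in untreated KO cells, with 17.2, 20.2 and 22.2 CPM in TGFβ1-treated control cells and 25.6, 21.4 and 22.9 CPM in untreated control cells. Its libraries overlapped in both genotypes, untreated KO replicate 1 was far above the rest, and the call was close to the threshold (-0.33 ± 0.12, adjusted p = 0.0488). E2f1, an E2F activator, had 41.9, 38.6 and 47.3 CPM in TGFβ1-treated KO cells and 46.8, 46.1 and 50.6 CPM in untreated KO cells, with 36.0, 32.8 and 50.2 CPM in TGFβ1-treated control cells and 43.4, 42.4 and 40.3 CPM in untreated control cells, a log2 fold change of -0.13 ± 0.10 (adjusted p = 0.362). The cyclin E genes, whose proteins drive entry into S phase with CDK2, did not pass and had opposite signs. Ccne2 gave -0.36 ± 0.16 (adjusted p = 0.115) and Ccne1 0.15 ± 0.10 (adjusted p = 0.303). Ccne1, also singled out after its values were seen, had 13.4, 11.2 and 13.8 CPM in TGFβ1-treated KO cells and 11.5, 12.9 and 10.6 CPM in untreated KO cells, with 9.93, 12.4 and 13.2 CPM in TGFβ1-treated control cells and 10.3, 11.6 and 9.47 CPM in untreated control cells.

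**Figure D3:**
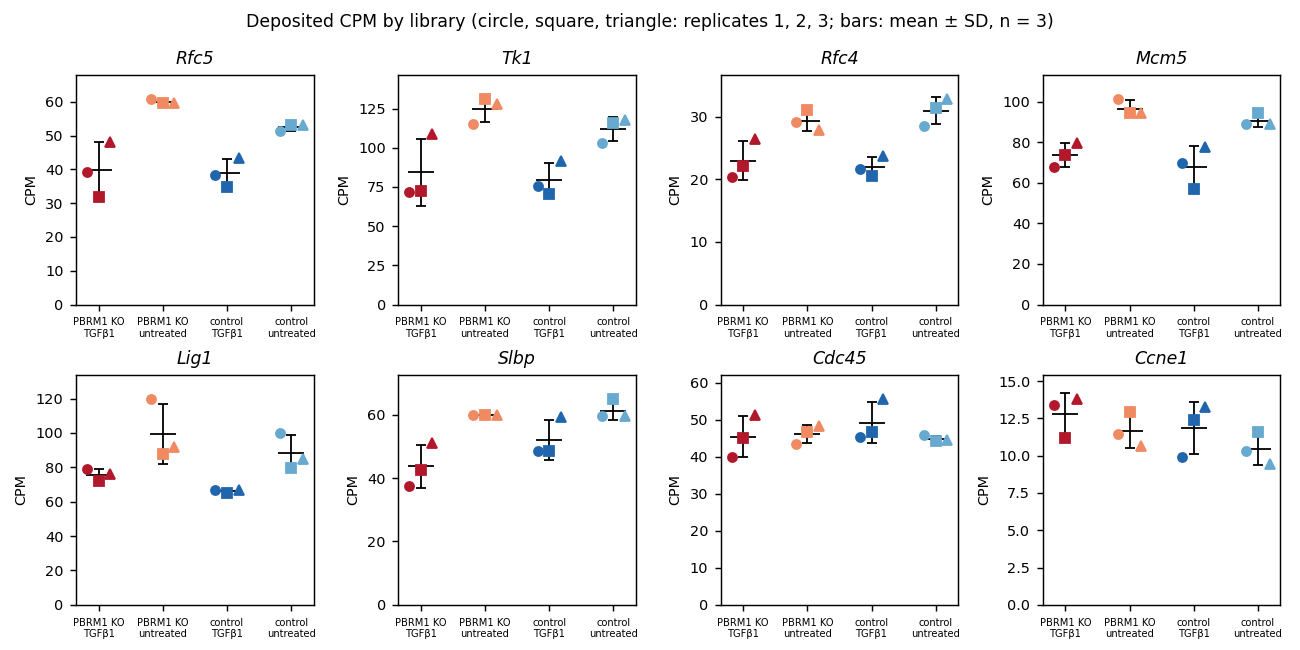
CPM of Rfc5, Tk1, Rfc4, Mcm5, Lig1, Slbp, Cdc45 and Ccne1 in the 12 libraries, with a linear axis from 0 for each gene, symbols for replicates 1 to 3, and bars for the mean ± SD of 3 libraries. The treated groups of the first 5 genes lie wholly below the untreated groups of the same genotype, treated replicate 3 of Tk1 is the highest of its group in both genotypes (109 CPM in KO and 91.6 CPM in control cells), and the groups of Cdc45 and Ccne1 overlap.

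By CPM ranges alone, with no model, more members separated within each genotype than passed the test there. In KO cells 16 of 40 members were lower in all 3 treated libraries than in all 3 untreated ones, against 13.7% of all genes tested. In control cells 18 of 40 were, against 12.2% of all genes. Lower with no overlap in both genotypes were 11 of 40, namely Mcm3, Mcm5, Mcm6, Rfc4, Rfc5, Pola2, Pole, Lig1, Tk1, Chaf1b and Slbp, against 6.32% of all genes.

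**Figure D4:**
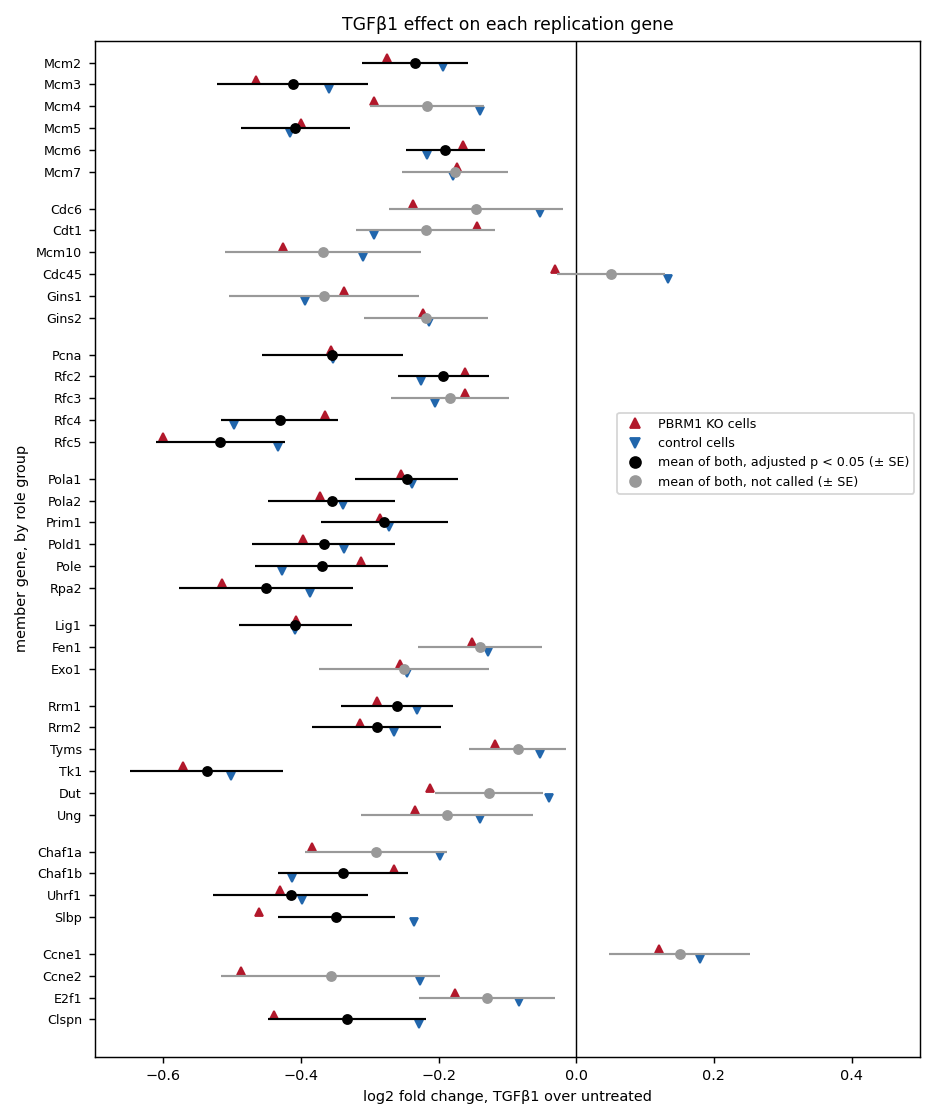
Log2 fold change of TGFβ1-treated over untreated cells for each of the 40 members, by role group, with circles for the mean of both genotypes ± SE (black where the adjusted p was below 0.05) and triangles for KO (up) and control (down) cells. The circles of Cdc45 and Ccne1 lie to the right of 0, while the KO triangle of Cdc45 lies left of it, at -0.03. Both triangles lie left of 0 for 38 of 40 members.

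The members did not follow TGFβ1 equally in every replicate. Against the untreated mean of the same genotype, the median of the 40 was -0.43, -0.44 and -0.04 on the log2 scale in replicates 1, 2 and 3 of TGFβ1-treated KO cells, with 39, 40 and 26 of 40 below it. In TGFβ1-treated control cells it was -0.35, -0.41 and -0.03, with 38, 38 and 24 of 40 below. Of all genes tested, 48.9%, 49.8% and 49.6% lay below the untreated mean in these KO libraries. In these control libraries 49.9%, 49.4% and 48.6% did. Replicates 1 and 2 thus carried most of the difference in both genotypes. The summed CPM of the 40 was 3028, 2972 and 3809 in TGFβ1-treated KO cells and 4048, 3898 and 3914 in untreated KO cells, with 3090, 2967 and 3718 in TGFβ1-treated control cells and 3765, 3856 and 3741 in untreated control cells.

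Individual members differed in replicate 3. In both genotypes 22 of the 40 lay below the untreated mean in treated replicate 3 and 12 lay above it in both; the 22 were the same genes as the 22 called, which use the same values. Lig1, Rfc5 and Mcm5, with replicate 3 values given above, stayed below all untreated libraries in both genotypes, while Cdc6 and Exo1 had the highest CPM of their genotype there. Cdc6 had 21.9, 25.6 and 36.3 CPM in TGFβ1-treated KO cells and 31.2, 32.7 and 34.4 CPM in untreated KO cells, with 28.1, 26.2 and 36.2 CPM in TGFβ1-treated control cells and 28.1, 31.3 and 34.5 CPM in untreated control cells. Exo1 had 35.9, 36.7 and 52.6 CPM in TGFβ1-treated KO cells and 52.1, 47.7 and 49.0 CPM in untreated KO cells, with 33.7, 35.5 and 51.9 CPM in TGFβ1-treated control cells and 45.1, 51.1 and 47.4 CPM in untreated control cells. Both lay below the untreated range in treated replicates 1 and 2 and above it in replicate 3, with 1 exception. Cdc6 in treated control replicate 1 was level with the lowest untreated control library, both at 28.1 CPM. In replicates 1 and 2, 37 of 40 were below the untreated mean in all 4 treated libraries, the exceptions being Cdc45, Ccne1 and Ccne2. No matching counts over several libraries are given for all genes. What made replicate 3 differ was not tested; the labels give no batch for it.

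**Figure D5:**
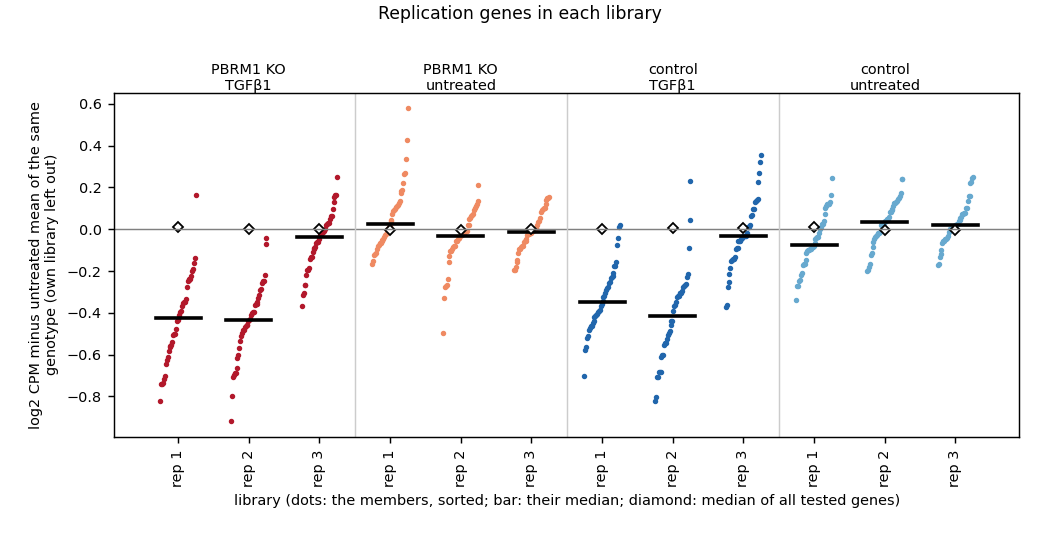
Log2 CPM of each member (dots, sorted) minus the untreated mean of the same genotype, by library, with the members' median as a bar and the median of all genes tested as a diamond; untreated libraries are set against the other 2 untreated libraries. The medians of TGFβ1-treated replicates 1 and 2 are -0.43 and -0.44 in KO cells and -0.35 and -0.41 in control cells, and those of replicate 3 are -0.04 and -0.03, while the diamonds stay near 0.

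In each genotype, the summed fibroblast markers were highest in TGFβ1-treated replicates 1 and 2. The summed epithelial markers were lowest in treated replicate 3. Whether any of these mRNAs came from another cell type was not tested. The summed fibroblast markers, which include Pdgfra, Pdgfrb, Dcn and Lum, had 16.5, 12.4 and 6.26 CPM in TGFβ1-treated KO cells and 8.44, 6.64 and 6.06 CPM in untreated KO cells, with 8.85, 14.3 and 7.38 CPM in TGFβ1-treated control cells and 6.6, 7.14 and 6.6 CPM in untreated control cells. Lum was at 0 to 0.461 CPM in all libraries and Pdgfrb at 0 to 8.4 CPM. Summed epithelial markers were 2880, 3000 and 2430 CPM in TGFβ1-treated KO cells and 2710, 2890 and 2770 CPM in untreated KO cells, with 2770, 2740 and 2140 CPM in TGFβ1-treated control cells and 3030, 2910 and 3020 CPM in untreated control cells. Their part in the results on the replication genes was not tested.

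Loss of PBRM1 was the other comparison of the study, and no replication gene passed it. Averaged over treatments, 0 of 40 members were called by edgeR's quasi-likelihood test, where 1.96% of all genes were. At an unadjusted p below 0.05 in that test were 0 of 40 members, against 1861 of 14012 genes. In untreated cells alone 0 of 40 were called (0.278% of all genes), and in TGFβ1-treated cells alone 0 of 40 (0.271% of all genes). Again 0 members were at an unadjusted p below 0.05 in either, against 1065 genes in untreated and 1194 genes in TGFβ1-treated cells. DESeq2 also called 0 in each of the 3. The edgeR values above used no replicate block, although same-numbered TGFβ1-treated libraries of KO and control cells deviated together. With the replicate number as a block, 0 of 40 members were called in TGFβ1-treated cells. Of all 14012 genes, 49 were then called higher and 109 lower in KO cells. The median log2 fold change of KO over control for the 40 was 0.07 in untreated cells, 0.03 in TGFβ1-treated cells and 0.06 averaged.

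The 95% intervals of the averaged KO effect reached a median of 0.20 to either side on the log2 scale, and ran at their widest down to -0.51, for Gins1, and up to 0.44, for Uhrf1. In the untreated cells they reached a median of 0.28 to either side, and the bounds reached -0.65 for Gins1 and 0.68 for Ccne2. Differences inside a member's own bounds are not excluded by these libraries. Lig1 had the smallest p, with KO above control by 0.18 ± 0.08 (unadjusted p = 0.0505, adjusted p = 0.377 in edgeR), and was the 1 member whose KO and control libraries did not overlap after TGFβ1, against 6.28% of all genes higher without overlap there. In untreated cells Mcm10, Rfc5, Pola2, Prim1, Rrm2, Uhrf1 and E2f1, 7 of 40, were higher in all KO than in all control libraries, against 6.95% of all genes, and Pole, 1 of 40, was lower, against 8.71% of all genes.

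In the other role groups, the member with the smallest p for the averaged KO effect was Mcm7 at 0.12 ± 0.08, Gins1 at -0.21 ± 0.14, Rfc2 at 0.08 ± 0.07, Pola1 at 0.15 ± 0.07, Rrm2 at 0.16 ± 0.09, Uhrf1 at 0.20 ± 0.11 and E2f1 at 0.14 ± 0.10. None of these adjusted p-values was below 0.418 in edgeR.

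Whether the TGFβ1 effect differed by genotype was tested as an interaction. It called 0 of 40 members and 0% of all genes in edgeR's quasi-likelihood test, with 0 members and 247 genes at an unadjusted p below 0.05, and DESeq2 called 0 genes. The TGFβ1 effect was below 0 in both genotypes for 38 of 40 members and more negative in KO cells for 29. Across the 40 members the effects in KO and control cells, which share no libraries, had a Pearson correlation of 0.77 and a Spearman correlation of 0.7; genes are not independent replicates, and both genotypes share the pattern of replicate 3. The widest difference between genotypes was 0.26, for Ccne2. The intervals of the interaction spanned a median of 0.40 to either side and reached -0.94 for Ccne2 and 0.65 for Gins1, so differences of the size of the TGFβ1 effect itself were within them.

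Related genes outside the 40 were read from 4 lists, with the averaged TGFβ1 effect, by which 10.6% of all genes fell and 15.1% rose. Of 40 other replication genes, 14 fell and 0 rose, with a median log2 fold change of -0.23. The smallest p-values belonged to Chtf18 (-0.62 ± 0.10, adjusted p = 0.000548) and Dscc1 (-0.62 ± 0.15, adjusted p = 0.00926), parts of an alternative clamp loader, and Timeless (-0.59 ± 0.11, adjusted p = 0.00254), which protects moving forks. Of 28 genes of nucleotide supply, chromatin and repair in S phase, 12 fell and 0 rose, with a median of -0.21. They included Usp1, a deubiquitinase that acts on PCNA (-0.43 ± 0.08, adjusted p = 0.00221), and the histone chaperone Asf1b (-0.39 ± 0.09, adjusted p = 0.00766).

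Of the genes that control the passage from G1 to S, 25 tested of 28 listed, 8 fell and 2 rose, with a median of -0.15. Over all genes tested, 10.6% fell and 15.1% rose. Cdkn1a, which encodes the CDK inhibitor p21, rose and had 31.7, 31.7 and 16.0 CPM in TGFβ1-treated KO cells and 8.29, 11.6 and 13.8 CPM in untreated KO cells, with 28.7, 25.4 and 18.8 CPM in TGFβ1-treated control cells and 12.1, 13.3 and 14.9 CPM in untreated control cells. All its treated libraries lay above all untreated ones, with replicate 3 the lowest of the treated, and the log2 fold change was 1.04 ± 0.18 (adjusted p = 0.00103). Tfdp2, a partner of E2F proteins, rose too (0.58 ± 0.13, adjusted p = 0.00542). E2f2, another E2F activator, fell, with 10.0, 8.96 and 10.2 CPM in TGFβ1-treated KO cells and 17.2, 14.4 and 10.9 CPM in untreated KO cells, and 9.44, 9.41 and 7.76 CPM in TGFβ1-treated control cells and 16.4, 11.6 and 12.2 CPM in untreated control cells. Its replicate 3 was as low as the other treated replicates, at -0.58 ± 0.12 (adjusted p = 0.0046). The CDK inhibitor Cdkn2c (-0.43 ± 0.09, adjusted p = 0.00329) and the D cyclin Ccnd2 (-0.49 ± 0.12, adjusted p = 0.00987) fell as well.

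Genes of mitosis fell in 18 of 24 cases and 0 rose, with a median of -0.30, where 10.6% of all genes fell and 15.1% rose. The smallest p-values were those of the spindle protein Nusap1 (-0.46 ± 0.08, adjusted p = 0.00083), the cytokinesis scaffold Anln (-0.55 ± 0.09, adjusted p = 0.00105) and the mitotic kinesin Kif20a (-0.36 ± 0.07, adjusted p = 0.0016). Against the untreated mean, the median of the mitotic list was -0.40, -0.36 and -0.21 in replicates 1, 2 and 3 of TGFβ1-treated KO cells and -0.34, -0.35 and -0.20 in those of control cells. In replicate 3 it therefore lay further below the untreated level than the replication genes did, at -0.04 and -0.03; this difference was not tested. For the averaged KO effect, 0 genes of the 4 lists were called by edgeR, where 1.96% of all genes were. In the order given, 5 of 40, 2 of 28, 4 of 25 and 1 of 24 had an unadjusted p below 0.05 in edgeR. Of all 14012 genes tested, 1861 did. DESeq2 called 1 gene of the lists, in that of G1 to S control.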

How the data were processed

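Libraries were made by poly(dT) priming, tagmentation and stranded single-end reading of 3′ ends with molecular identifiers, per the labels' protocols. The tools named in the submitters' processing notes were STAR 2.7.11, fastp 0.24.0, Subread 2.1.1, featureCounts, SAMtools 1.22.1 and edgeR 3.38.4, and the build named was mm39. Their roles, settings and the annotation release are not given in the sources used here. Deposited by the authors were expected counts per gene, some of them fractional, and CPM values, per the file headers. The 92 spike-in rows held 0.

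Counts were rounded, filtered with filterByExpr and scaled by TMM, which left 14012 genes. edgeR 4.0.16 in R 4.3.3 fitted 1 mean per group to all 12 libraries, and its quasi-likelihood F test was run for 7 contrasts with Benjamini-Hochberg adjustment over all genes and a threshold of 0.05. The SE is the log2 fold change divided by √F, and intervals use the t quantile 2.155. The common biological coefficient of variation was 12.5%. Printed levels are deposited CPM; log2 CPM outside the fit used a prior count of 2. Replicates correlated at 0.978 to 0.992 and were not copies. Scripts were tested on simulated counts.

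Values are given in full for members called in any contrast and, in each role group, for the member with the smallest p for the averaged TGFβ1 and KO effects; outside the 40, for up to 3 called genes per direction and list, 1 of which is not reported here. The members and lists were chosen with earlier results of these data known. Replicate numbers paired the samples, by correlations of deviations above 0.1 in all 3 pairs, for TGFβ1 in KO cells (0.201, 0.139 and 0.202) and for genotype with TGFβ1 (0.396, 0.416 and 0.726), not for TGFβ1 in control cells (0.258, -0.084 and 0.137) or genotype without it (0.149, 0.069 and 0.125). Alternatives were DESeq2 1.42.0, RLE scaling, no filter, a replicate block, and leaving out each library or both TGFβ1-treated replicate 3 libraries.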

Additional observations from a re-analysis of the deposited data

How the results depend on the processing

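No called member changed sign under any alternative run. Averaged over genotypes, members lower after TGFβ1 numbered 22, and 38 without both TGFβ1-treated replicate 3 libraries (19.3% of all genes), 26 without the filter (11.2%) and 30 with the replicate block (15.6%). In KO cells the 5 became 15 without the filter (6.15% of all genes), 17 with the block (7.84%) and 34 without both replicate 3 libraries (12%). In control cells the 3 became 5 in DESeq2 (3.35%), 10 without the filter (4.72%), 14 with the replicate block (6.35%) and 29 without both replicate 3 libraries (10%). Calls over all genes thus rose under these settings too. Leaving out 1 library at a time gave 12 to 35 averaged calls (7.18% to 16% of all genes): 12 without TGFβ1-treated KO replicate 1 or 2, 13 without TGFβ1-treated control replicate 2, 14 without untreated control replicate 2, and 35 and 33 without TGFβ1-treated replicate 3 of KO and control cells. In KO cells it gave 0 to 25 (at most 9.3% of all genes). The calls in KO cells were 0 without treated KO replicate 1 or 2 (at most 1.26% of all genes). They were 25 without treated KO replicate 3, and 1, 3 and 2 without untreated KO replicates 1, 2 and 3. Without treated control replicate 3 they were 11, and without untreated control replicate 3 they were 3. In control cells leaving out 1 library gave 0 to 17 (1.02% to 6.31% of all genes). The calls in control cells were 0 without treated control replicate 1 or 2 and 17 without treated control replicate 3. They were 1, 0 and 0 without untreated control replicates 1, 2 and 3, and 2 and 9 without treated KO replicates 1 and 3. In the averaged comparison, the genes called in all 12 of these fits were Mcm3, Mcm5, Rfc4, Rfc5, Pola2, Pole, Lig1, Tk1, Chaf1b, Uhrf1 and Slbp. Only members were followed through the 12 fits, so this list has no share of all genes to compare it with. The genotype and interaction counts were 0 throughout. Precision is limited by 3 libraries a group.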
